A study of Rattus norvegicus with 8 samples.

Results

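miR-146a and miR-146b were followed in the kidneys of 8 male Big Blue rats of the Fisher 344 strain. They were taken by name from the table of read counts on known rat miRNAs, with every arm listed, which gave 5 of its 620 names. These are rno-miR-146a, rno-miR-146a*, rno-miR-146b, rno-miR-146b* and a second entry for that star arm, rno-mir-146b*, written with a small r. The table does not say how the 2 star entries differ, and 33 of its names are listed in both forms. All 8 rats carried the Big Blue transgene, a reporter for mutation assays, and were 6 weeks old at the start. The AA group of 4 rats was given aristolochic acid (AA), a plant nephrotoxin and kidney carcinogen, as its sodium salt by gavage at 10.0 mg/kg with 5 doses a week for 12 weeks, and the control group of 4 rats was given sodium chloride solution on the same schedule. The kidneys were taken the day after the last dose, and each small RNA library came from 1 rat.

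miR-146a and miR-146b are made from hairpins of different genes, but their main products carry the same seed, the short stretch at the 5′ end by which a miRNA recognises its target messages. They are therefore read as repressors of the same targets, of which Traf6 and Irak1, adaptors of Toll-like receptor and interleukin-1 signalling, are the best known. miR-146a is known as a gene induced by NF-kB, so that it acts as a brake in a feedback loop on inflammation. It is abundant in immune cells and is also found in epithelial and endothelial cells. The comparison of AA with control asks here which of the 2 genes with this seed differed in the treated kidney.

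The mature sequences are shown because the whole comparison rests on reads being assigned to one or the other. They come from RefSeq on the rat assembly GRCr8, where both names were matched, the names without an arm taken as the 5p arms and the star names as the 3p arms. The capitals mark the seed, bases 2 to 8.
rno-miR-146a-5p: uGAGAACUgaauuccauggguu
rno-miR-146b-5p: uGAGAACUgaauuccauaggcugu
rno-miR-146a-3p: aCCUGUGAaguucaguucuuu
rno-miR-146b-3p: cCUAGGGAcucaguucuggug

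The 5p arms were 22 and 24 bases long and shared their first 17 bases. Over the 22 positions of both, 20 were the same, and the differences were G18A and U21C, with the base of miR-146a first and positions counted from 1 at the 5′ end. miR-146b-5p ran on for 2 more bases at its 3′ end. Among the 693 mature rat miRNAs of the RefSeq table, only these 2 held the seed GAGAACU at bases 2 to 8. The opposite arms were unlike each other, with 6 of 21 positions the same and different seeds.

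The hairpins are shown with both arms in capitals, since the opposite arm gives a separate count for each gene.
Mir146a: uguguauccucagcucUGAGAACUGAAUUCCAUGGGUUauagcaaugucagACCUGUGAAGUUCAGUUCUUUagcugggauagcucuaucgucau
Mir146b: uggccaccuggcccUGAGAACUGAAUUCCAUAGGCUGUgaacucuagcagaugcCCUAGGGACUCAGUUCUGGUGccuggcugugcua
In GRCr8 the Mir146a hairpin of 95 bases lies at chr10:28349996-28350090 on the minus strand and the Mir146b hairpin of 88 bases at chr1:255144860-255144947 on the plus strand. In the gene table of the same assembly, Mir146a overlaps the long non-coding RNA LOC134480673, with Pttg1 as its neighbour at higher coordinates. Mir146b overlaps the protein-coding gene C1h10orf95, between Cuedc2 and Mfsd13a. The strands of the overlapping genes were not compared.

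The 8 libraries held 13412373 to 15616670 reads on the listed miRNAs. The total of reads that the study's text gives for the 8 samples together lies within this range of single libraries. The sources used here do not explain the difference. Of the 620 miRNAs, 367 had at least 10 reads in at least 4 libraries and were tested between the groups with edgeR's quasi-likelihood test. At an adjusted p under 0.05, 60 of them were called, or 16.3%, with 10.4% called higher and 5.99% called lower in the AA group. The tissue is kidney by the study's text, but 1 field of the labels names liver. The 6 nephron miRNAs of a marker list (miR-30a, miR-30c, miR-30d, miR-192, miR-194 and miR-204) summed to 126462 to 235702 CPM in the 8 libraries. The largest part was miR-30a at 88673 to 142055 CPM, while miR-204 was at 14.9 to 39.2 CPM. miR-122, the defining miRNA of liver cells, was between 0.696 and 523 CPM. CPM are counts per 1e6 reads, scaled by the TMM method of edgeR. Its highest values were in the second AA library and, at 53.0 CPM, in the first control library, and results are also given without this pair.

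miR-146b was higher in every AA rat than in any control rat. In the control group it was at 512, 349, 332 and 340 CPM in libraries 1 to 4, and in the AA group at 2676, 1380, 858 and 2502 CPM. The first control library stood above the other 3 of its group, and the AA libraries spread more widely, with library 3 the lowest. The control mean was 383 ± 86.0 CPM and the AA mean 1854 ± 878 CPM (SD, n = 4 each). This was a rise of 2.27 on the log2 scale (edgeR, standard error 0.35, adjusted p = 0.0014 over 367 miRNAs), or 4.84-fold with a 95% interval from 2.84-fold to 8.23-fold. It took place 13 among the miRNAs called higher, ordered by log2 fold change. The groups did not overlap in 24.3% of all tested miRNAs.

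miR-146a, with the same seed, was not called. It was at 1781, 1292, 1454 and 1213 CPM in control libraries 1 to 4 and at 1185, 1372, 1344 and 1481 CPM in the AA libraries. The ranges lay over each other, and the highest value of the 8 was a control. The control mean was 1435 ± 252 CPM and the AA mean 1345 ± 123 CPM (SD, n = 4 each). On the log2 scale the change of miR-146a was -0.093 (edgeR, standard error 0.16, adjusted p = 0.71), and its direction turned with the scaling, to 0.12 with total counts. The 95% interval of the fold change ran from 0.731 to 1.20, so that a rise of the size seen for miR-146b lay outside it.

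**Figure D1:**
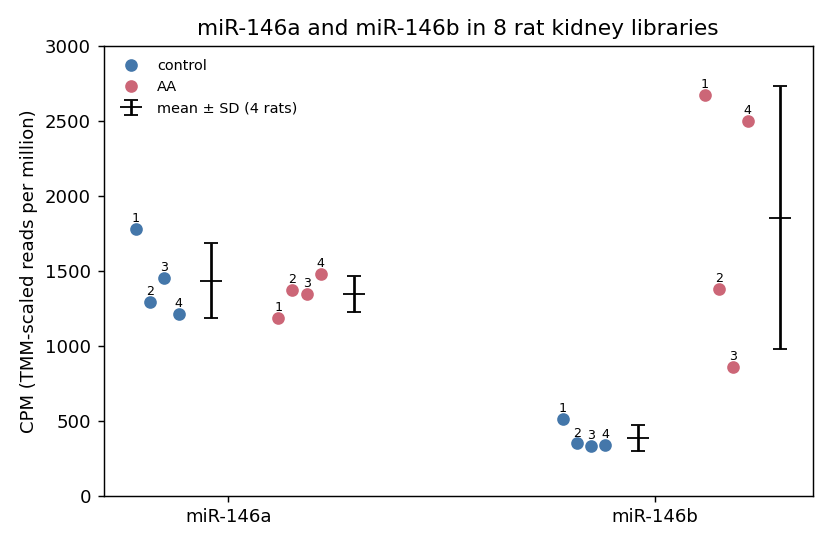
CPM of miR-146a and miR-146b in each library, with points for single rats numbered as in the labels and bars for the mean ± SD of 4 rats. The control and AA points of miR-146a lie over each other between 1185 and 1781 CPM, whereas those of miR-146b are separate, at 332 to 512 CPM in control rats and 858 to 2676 CPM in AA rats.

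Among all tested miRNAs, both main arms were of middle to high abundance. By reads, miR-146a held place 37 to 42 of 620 in each library, in the control and the AA group alike. miR-146b held place 68 to 80 in the control libraries and moved up to place 29, 38, 51 and 31 in the 4 AA libraries. Its share of the reads on the listed miRNAs went from 0.0355% ± 0.00639 to 0.197% ± 0.0845 (SD, n = 4 each), while that of miR-146a was 0.134% ± 0.0233 and 0.146% ± 0.0234.

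**Figure D2:**
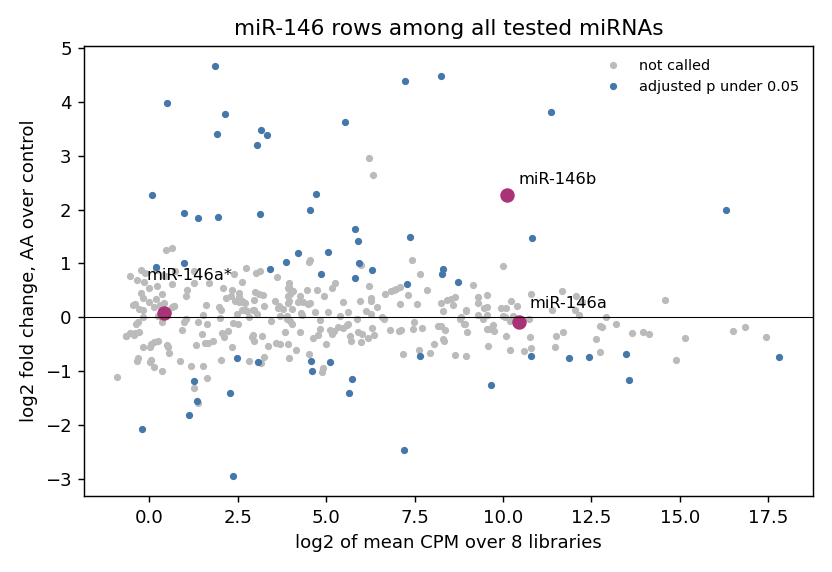
Log2 fold change of AA over control against the log2 of the mean CPM for the 367 tested miRNAs, 1 point each, with those at an adjusted p under 0.05 in blue and the 3 tested miR-146 rows in purple. miR-146b lies at 2.27 and miR-146a at -0.093 at nearly the same abundance.

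The order of the 2 genes was the same in all control rats but not in all AA rats. In the control group miR-146a led in all 4 rats, and miR-146b made up 22.3%, 21.3%, 18.6% and 21.9% of the reads of both in libraries 1 to 4. In the AA group its part was 69.3%, 50.1%, 39.0% and 62.8%. Thus miR-146b led clearly in AA rats 1 and 4, and miR-146a in AA rat 3. In the second AA rat the 2 were level, since the 95% Wilson interval of 49.7% to 50.6% holds both orders. The mean share of miR-146b was 21.0% ± 1.68 in control rats and 55.3% ± 13.5 in AA rats (SD, n = 4 each). The Wilson intervals cover the counting error of reads only. PCR copies of 1 molecule are counted as separate reads, so that the intervals may be too narrow for the molecules.

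The ratio of miR-146b to miR-146a compares the responses of the 2 genes within each library, where the scaling cancels. Its log2 value averaged -1.91 ± 0.150 in control rats and 0.32 ± 0.807 in AA rats (SD, n = 4 each), and the difference was 2.24, or 4.71-fold. No AA rat overlapped with a control rat. The exact permutation test, two-sided, gave p = 0.0286, the smallest value that 4 against 4 rats can give. After Benjamini-Hochberg adjustment over the 2 permutation tests made it was p = 0.0571, so that the difference did not pass the adjusted threshold. The ratio could pass it only if the other test, of the summed level of both genes, also gave that smallest value. With TMM scaling the test of the sum did not. Counts were not divided by length. The study's text drops reads shorter than 17 bases. The 2 main arms share their first 17 bases, so that a read of that length could fit both. The methods give 22 bases as the lower bound of the gel cut, which is the length of miR-146a, whereas miR-146b has 24 bases. Both end in u, but they differ in length and in bases near the 3′ end, which can alter how well adaptors are joined to them. The part of the gel cut and of adaptor joining in the ratio was not tested. Nor was that of reads assigned to the wrong one of 2 sequences alike in 20 of 22 bases.

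The summed level of the shared seed differed less between the groups than miR-146b alone. The sum of both was 2293, 1641, 1786 and 1553 CPM in control libraries 1 to 4 and 3861, 2752, 2202 and 3983 CPM in AA libraries 1 to 4. Here control rat 1 lay above AA rat 3. The difference in mean log2 CPM was 0.79, or 1.73-fold, with p = 0.0571 by the exact permutation test, two-sided, also after adjustment over the 2 tests. With total counts in place of TMM the groups no longer overlapped, and the difference was 1.00 on the log2 scale (exact permutation p = 0.0286).

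**Figure D3:**
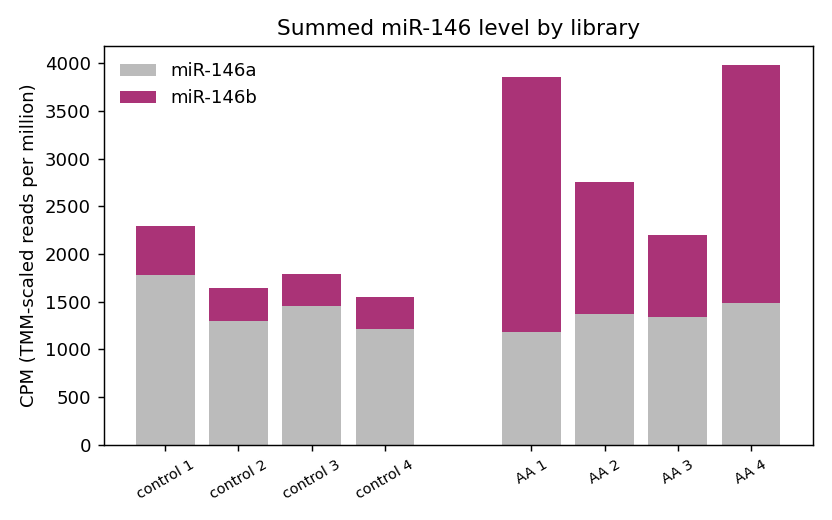
Stacked bars of the CPM of miR-146a (grey) and miR-146b (purple) in each of the 8 libraries. The grey parts are of like height in both groups, and the purple part is the larger in AA libraries 1 and 4.

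The opposite arms were counted on few reads. At 21 bases both lie below the lower bound that the methods give for the gel cut, and the effect of this on their reads was not tested. rno-miR-146a* had 22, 18, 15 and 16 reads in control libraries 1 to 4 and 15, 25, 19 and 28 reads in the AA libraries. Its groups overlapped, and on the log2 scale it changed by 0.083 (edgeR, standard error 0.27, adjusted p = 0.85), with a 95% interval on the log2 scale from -0.52 to 0.69. It made up 0.0891% of the reads of its hairpin in the control group (95% Wilson interval 0.0706% to 0.112%) and 0.102% in the AA group (0.0828% to 0.126%). Each star read thus stood beside about 1043 reads of the main arm over all 8 libraries. The Wilson intervals pool the reads of all rats of a group, so that the spread between rats is left out.

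For miR-146b, rno-mir-146b* had 3, 0, 0 and 1 reads in control libraries 1 to 4 and 7, 12, 3 and 28 reads in the AA libraries, in all 4 and 50 reads. A count of 0 allows up to 3 reads in a library, so that the arm may have been present in control rats 2 and 3 as well. AA rat 3 had no more of these reads than control rat 1, and AA rat 4 had most of them. With at least 10 reads in only 2 libraries it was not among the 367 tested. Where no filter on reads was set, edgeR put its change at 3.25 on the log2 scale (standard error 0.86, adjusted p = 0.027 over 620 miRNAs). The other entry, rno-miR-146b*, had 3 reads in all, at most 1 in a library, and no difference was detectable at this depth. Both entries together made up 0.0237% of the reads of the hairpin in the control group (95% Wilson interval 0.0101% to 0.0555%) and 0.0453% in the AA group (0.0345% to 0.0594%). These intervals overlap, but they pool the reads of all rats of a group and leave out the spread between rats. They are therefore no test between the groups.

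miR-146 is abundant in leukocytes, and a list of leukocyte miRNAs was therefore read in the same fit. In whole kidney, more cells of a type and more miRNA in each cell cannot be told apart. Of its 5 members 4 were tested and miR-155 was not among the listed names. miR-142-3p and miR-223 rose, and none fell, so that 2 of 4 were called higher against 10.4% of all tested miRNAs. miR-142-3p, a miRNA of all blood-forming lineages, was at 1108, 936, 1010 and 761 CPM in the control libraries and 2209, 2656, 1854 and 3875 CPM in the AA libraries, a rise of 2.78-fold (edgeR, adjusted p = 0.0018). miR-223, which marks myeloid cells, rose by 1.02 on the log2 scale (edgeR, adjusted p = 0.019). That call was lost without control library 1, 2 or 3 and without AA library 1 or 4 (adjusted p up to 0.086), and without the pair high in miR-122 (adjusted p = 0.12). miR-150 of mature lymphocytes had a log2 fold change of 0.58 (adjusted p = 0.062, but called in 3 alternative fits, at 0.024 with the DESeq2 Wald test and with total counts and at 0.041 with the library number as a block) and miR-142-5p one of 0.30 (adjusted p = 0.56). The median of the 4 log2 fold changes was 0.80, beside 0.061 for all tested miRNAs. Their summed level was 914 to 1264 CPM in control rats and 2057 to 4121 CPM in AA rats. The lists here and below were chosen with earlier results of these data known, and their called shares carry no set test.

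Set against miR-142-3p, the 2 genes parted. miR-146b had 0.462, 0.373, 0.329 and 0.447 reads for each read of miR-142-3p in control libraries 1 to 4 and 1.21, 0.520, 0.463 and 0.646 reads in the AA libraries. AA rat 3 was nearly level with control rat 1. miR-146a had 1.38 to 1.61 reads for each read of miR-142-3p in the control group and only 0.382 to 0.725 in the AA group. miR-142-3p had the largest rise of the leukocyte list, at 2.78-fold, whereas miR-142-5p changed 1.23-fold and was not called (edgeR, adjusted p = 0.56). The ratios thus depend on the marker chosen, and ratios to the other list members were not taken. These ratios were chosen after the values were seen and carry no test, and the part of leukocytes in the level of either gene was not tested.

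A second list held miRNAs described as responding to NF-kB or Toll-like receptor signalling. Of its 6 members 5 were tested, and miR-21 and miR-132 rose while none fell, so that 2 of 5 were called higher against 10.4% of all tested miRNAs. miR-132 had 9.23 ± 2.90 CPM in control and 37.0 ± 6.18 CPM in AA rats (SD, n = 4 each), which was 4.0-fold (edgeR, adjusted p = 0.00070). miR-21, widely induced in injured and fibrotic tissue, rose 3.97-fold (edgeR, adjusted p = 0.0012). In log2 fold change miR-147 was at 1.28 (adjusted p = 0.11), miR-9 at 0.33 (adjusted p = 0.35) and miR-125b-5p at -0.22 (adjusted p = 0.39), none of them called. The median of the 5 was 1.28, beside 0.061 for all tested miRNAs. miR-146a, the member of the family best known for this pathway, was not called.

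Markers of the other cell types were either not called or fell. Neither of the 2 red blood cell miRNAs tested was called, with log2 fold changes of -0.49 for miR-144 and -0.72 for miR-451, and miR-486 was not among the listed names. The 2 arms of the endothelial miR-126 were not called, at -0.18 for miR-126 and -0.58 for miR-126*. Of the 6 nephron miRNAs, miR-194 and miR-204 fell by 0.73 and 0.80 in log2 CPM (edgeR, adjusted p = 0.0499 and 0.034), and 4 were not called, so that 2 of 6 were called lower against 5.99% of all tested miRNAs. Both calls were lost without control library 1, 2 or 4 and without AA library 3, that of miR-194 also without AA library 2 and that of miR-204 also without AA library 1 (adjusted p up to 0.11). Both were also lost without a filter on reads (adjusted p = 0.062 and 0.051), without the pair of libraries high in miR-122 (0.14 and 0.085) and with total counts (0.090 and 0.10). With total counts the median change of all tested miRNAs was 0.27 in place of 0.061.

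**Figure D4:**
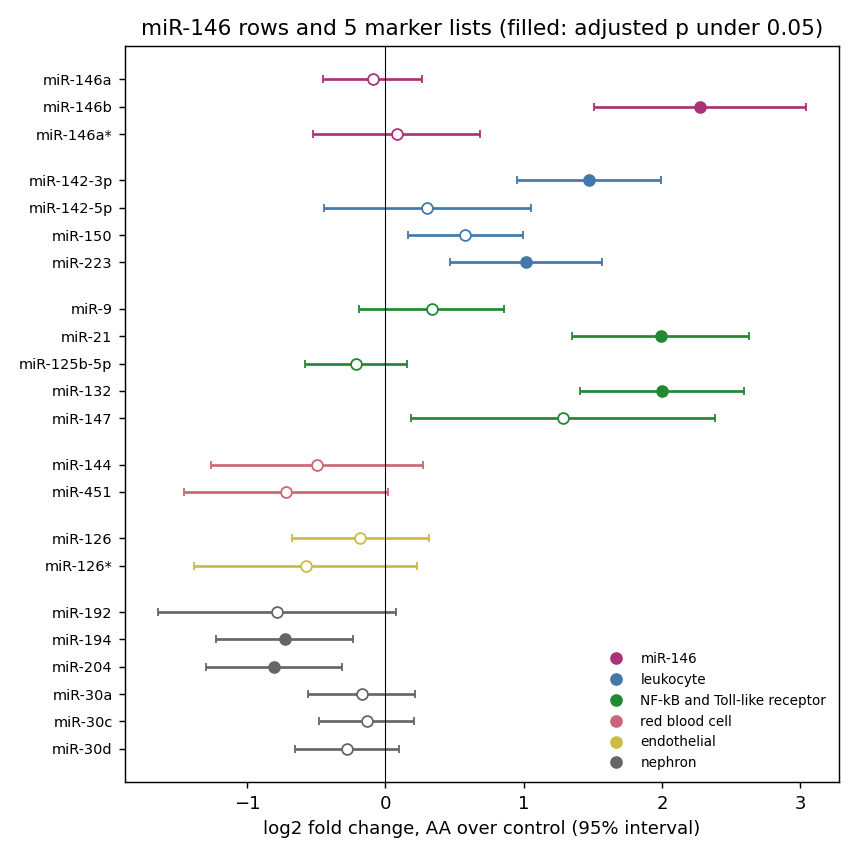
Log2 fold change of AA over control with its 95% interval for the 3 tested miR-146 rows and the tested members of the 5 lists, filled where the adjusted p was under 0.05. miR-146b lies at 2.27 and miR-21 at 1.99, whereas the interval of miR-146a holds 0.

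The miRNA whose level followed miR-146b most closely was miR-21. Likeness was taken as Pearson's r of log2 CPM over the 8 libraries among the other tested miRNAs, without a test, since the closest of many is bound to be close and the group difference enters into it. For miR-21 r was 0.996, and with the group means taken off each library it was 0.983. miR-21 was at 38797, 31415, 31252 and 28096 CPM in control libraries 1 to 4 and 164774, 101057, 70622 and 177903 CPM in the AA libraries. Control rat 1 was again the highest of its group, and AA rat 3 again the lowest of its own. The reads of miR-21 for each read of miR-146b stayed between 61.6 and 94.2 in all 8 libraries. The next 4 were miR-130b (r = 0.974), miR-15b* (0.972), miR-18a (0.966) and miR-301b (0.961), all of them called higher in the AA group, by log2 fold changes from 1.03 for miR-15b* to 2.30 for miR-130b.

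**Figure D5:**
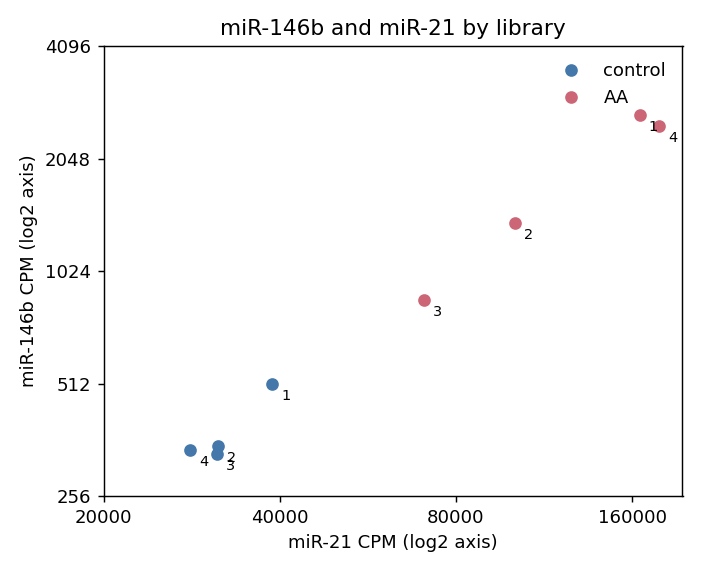
CPM of miR-146b against CPM of miR-21 on log2 axes, 1 numbered point for each of the 8 libraries. The control libraries lie at 332 to 512 CPM of miR-146b and the AA libraries at 858 to 2676 CPM, in nearly the same order for both miRNAs.

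For miR-146a the closest miRNAs were less alike. miR-183 had an r of 0.758, followed by miR-206 (0.698), miR-154 (0.625), miR-338* (0.611) and miR-181d (0.587), and none of these 5 was called between the groups. The r between miR-146a and miR-146b themselves was -0.13 over the 8 libraries and 0.20 with the group means taken off.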

How the data were processed

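Per the labels and the study's methods, the authors sequenced small RNA libraries for 36 cycles on an Illumina Genome Analyzer II, masked adaptors and deposited whole-number read counts per known rat miRNA and library, without normalization. The methods name miRanalyzer and miRBase 17, and the labels name Bowtie. The mismatches allowed, which decide how reads are shared between miR-146a and miR-146b, are not given in the sources used here.

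From these counts, groups were taken from the sample titles. The miRNAs that reached 10 reads in 4 or more libraries were fitted with edgeR 4.0.16 in R 4.3.3 (TMM, glmQLFit, glmQLFTest, Benjamini-Hochberg adjustment over all tested, threshold 0.05). The standard error is the log2 fold change divided by the root of F. In counts simulated for the 367 miRNAs, 200 of which were raised or lowered by 2 on the log2 scale, 98.5% of those were recovered with 5 false calls, and 1 call was made where none was changed. Ratio and sum were compared by exact permutation (scipy 1.17.1). log2 CPM for likeness used a prior count of 2. Libraries of 1 group differed by a chi-square of at least 437 per degree of freedom, so none was a repeat of another. Each came from a separate rat.

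The members and lists were chosen with earlier results of these data known. Named are the miR-146 rows, the list members, miR-122 and the 5 miRNAs most like each main arm. Alternatives were DESeq2 size factors, total counts, the DESeq2 1.42.0 Wald test, other read filters, the library number as a block, single libraries left out, libraries 1 to 3 only and the counts less the 3 most abundant miRNAs. Leaving out the pair of libraries highest in miR-122 was chosen after the data were seen.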

Additional observations from a re-analysis of the deposited data

Results flagged for a closer look

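Over the 50 groups of 4 libraries examined (the tested miR-146 rows, their ratio and sum, and the list members), 3 values stood apart from the other 3 libraries, and about 1 in 20 groups would do so by chance. Control library 1 had 512 CPM of miR-146b, where the other control libraries had 332 to 349 CPM. Without this library the log2 fold change of miR-146b was 2.44 (adjusted p = 0.0030 from edgeR).

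miR-122 was at 53.0 CPM in the same library, against 4.05 to 5.89 CPM in the other controls, and at 523 CPM in AA library 2, against 0.696 to 2.96 CPM in the other AA libraries. Without both, miR-146b had a log2 fold change of 2.45 (adjusted p = 0.0047 from edgeR). Its ratio to miR-146a still differed by 2.38 on the log2 scale, where the 6 libraries left cannot give an exact permutation p below 0.10.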

How the results depend on the processing

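miR-146b was called higher in all 17 alternative fits. Its log2 fold change was 1.92 to 2.51 with single libraries left out, where the lowest came without the first AA library, and 2.0 to 2.47 elsewhere, with adjusted p from 8.1e-09 to 0.012. miR-146a was called in none of the 17 (adjusted p 0.25 to 0.91), and its log2 fold change turned positive with total counts (0.12) and without the first control library (0.026), and was -0.24 to 0.026 with single libraries left out. miR-146a* was called in none either. It was -0.051 in libraries 1 to 3 and -0.011 without the 3 most abundant miRNAs, and -0.16 to 0.22 with single libraries left out.

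The ratio difference was 1.95 to 2.56 with single libraries left out, at an exact permutation p = 0.0571 each time, which is the smallest that 3 against 4 rats allow. It was 2.12 in libraries 1 to 3 and 2.38 without the libraries high in miR-122, at an exact permutation p = 0.10, the smallest for 3 against 3. The summed level, 0.67 to 0.96 with single libraries left out, passed p = 0.05 before adjustment only with total counts (1.00, exact permutation p = 0.0286).

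The number of miRNAs called was 60. It was 35 to 51 with single libraries left out, lowest without the second control library (35) and the first (37), and 30 without the libraries high in miR-122. With total counts 54 were called higher and 14 lower in place of 38 and 22, and in libraries 1 to 3 it was 27 and 25. The list members called were 6, with 3 to 5 when single libraries were left out (3 without the first or the second control library) and 3 without the libraries high in miR-122. The direction of uncalled list members turned with total counts for miR-126 (0.021), miR-30a (0.028) and miR-30c (0.077). miR-142-5p turned without the second AA library (-0.043, the lowest with single libraries left out, and 0.46 the highest) and without the libraries high in miR-122 (-0.093). miR-122 turned with the replicate block (-1.26), without the second AA library (-3.37, up to 4.73 with other libraries left out) and without both libraries (-1.73).

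The titles number the libraries 1 to 4 in each group. With the number as a replicate block, 78 miRNAs were called, 57 of them shared, and miR-146b was at 2.16 (adjusted p = 0.00089 from edgeR). Deviations of same-numbered libraries correlated at 0.05, 0.20, 0.14 and 0.35 over 367 miRNAs, above 0.1 in 3 of 4 pairs, and 6 of 8 libraries correlated best with their own number. The labels tie no number to a batch, and whether the pairs share one is not settled.

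Depth limits the opposite arms, with 0 to 28 reads a library.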
